A study of Mus musculus with 6 samples.

Results

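The miR-7 family of mouse microRNAs (miRNAs) was followed in small RNA from extracellular vesicles (EVs) and from the primary oligodendrocytes that released them. Its 3 members, miR-7a-5p, miR-7b-5p and miR-7b-3p, were taken by name from the 1906 mature miRNAs counted in each of 6 libraries. The 3 EVs libraries came from vesicles that C57BL/6N oligodendrocytes released over 24 h at 5 to 6 days in vitro into Sato medium that held B27, a neural culture supplement, and no serum. The 3 Cells libraries came from whole oligodendrocytes at 6 days in vitro. Both kinds of sample go back to cultures from mice at embryonic day 14 grown in Sato medium with 1% horse serum, and no library of medium alone was analysed here. Vesicles were the pellet of an ultracentrifuge spin, where other particles collect too, and whether the replicates are separate cultures is not stated in the labels.

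miR-7 is an old and strongly conserved miRNA that is abundant in neurons and endocrine cells, among them those of the hypothalamus, the pituitary and the pancreatic islet. In the mammalian brain it is bound by the circular RNA Cdr1as, which miR-671-5p cuts, and it is destroyed after pairing with the long noncoding RNA Cyrano. In the mouse nervous system miR-7a has also been linked to the production of oligodendrocyte precursors. Each miRNA hairpin gives a 5p and a 3p arm, and the seed, bases 2 to 8 of the mature strand, does most of the target recognition.

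The mature sequences, taken from RefSeq (build GRCm38.p6), are shown first because the members differ by so little that reads could be exchanged between them. Capitals mark the seed.
miR-7a-5p: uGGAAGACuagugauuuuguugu
miR-7b-5p: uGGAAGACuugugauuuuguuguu
miR-7b-3p: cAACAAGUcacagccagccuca
miR-7a-1-3p: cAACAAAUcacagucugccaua
miR-7a-2-3p: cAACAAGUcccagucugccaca

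The 5p arms of miR-7a (23 nt) and miR-7b (24 nt) share the seed GGAAGAC and differ over their first 23 bases by A10U alone, counted from 1 at the 5′ end of miR-7a-5p. That base lies outside the seed. Of the 1906 names in the tables, 1622 had a RefSeq sequence, and of these only miR-7a-5p and miR-7b-5p carried this seed. The 3p arms are easier to tell apart. From miR-7b-3p to miR-7a-2-3p there are 4 differences (A10C, C14U, A16U and U20A), and from miR-7b-3p to miR-7a-1-3p there are 5, of which G7A lies in the seed. miR-7b-3p therefore shares its seed, AACAAGU, with miR-7a-2-3p and not with miR-7a-1-3p.

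The hairpins show where these arms come from. Capitals mark the annotated mature arms, 5p before 3p.
Mir7-1: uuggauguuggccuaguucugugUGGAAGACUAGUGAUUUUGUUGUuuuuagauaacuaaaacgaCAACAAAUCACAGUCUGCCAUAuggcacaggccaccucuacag
Mir7-2: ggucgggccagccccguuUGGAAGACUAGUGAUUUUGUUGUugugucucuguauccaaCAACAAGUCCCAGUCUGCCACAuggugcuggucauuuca
Mir7b: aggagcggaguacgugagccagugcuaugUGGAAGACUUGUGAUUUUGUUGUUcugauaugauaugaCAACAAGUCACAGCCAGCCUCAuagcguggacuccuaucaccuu

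Mir7-1 lies at chr13:58392779-58392886 on the minus strand (GRCm38.p6), within Hnrnpk and on the same strand, where no exon of that gene overlaps it in GENCODE M21, so it is intronic. Mir7-2 lies at chr7:78888277-78888373 on the plus strand and Mir7b at chr17:56242988-56243098 on the plus strand, and neither overlapped another annotated gene. Mir7-1 and Mir7-2 give the same miR-7a-5p, so its reads cannot be divided between these genes, while miR-7a-1-3p and miR-7a-2-3p each come from a single gene.

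Both 5p arms were lower in EVs than in Cells, to about the same degree, and the 3p arm of miR-7b was not read in any library. miR-7a-5p and miR-7b-5p together took 0.329% ± 0.0411 of counts in EVs and 0.523% ± 0.12 in Cells (SD, n = 3 each). Total counts were 313766 to 689475 in EVs and 126910 to 202358 in Cells, so with counts scaled to a common library size (CPM) a single read was worth 1.45 to 3.19 CPM in an EVs library and 4.94 to 7.88 CPM in a Cells library. In material pooled from many cells or vesicles, fewer carriers of a miRNA and less of it per carrier cannot be told apart.

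miR-7a-5p, the more abundant member, stood at 2086, 1845 and 2325 CPM in EVs replicates 1, 2 and 3, against 2478, 3782 and 3578 CPM in Cells replicates 1, 2 and 3. Every EVs library lay below every Cells library, with Cells replicate 1 close to the EVs libraries. Among the 336 tested miRNAs, 20.2% had all EVs libraries below all Cells libraries in this way. The values rested on 899, 579 and 1603 reads in EVs and 387, 480 and 724 reads in Cells. Counts were scaled by trimmed mean of M-values (TMM) and tested with edgeR's quasi-likelihood test. With Benjamini-Hochberg (BH) adjustment over the 336 miRNAs, the log2 fold change of EVs over Cells was -1.11 (SE 0.19, adjusted p = 0.0013).

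miR-7b-5p stood at 974, 1195 and 1437 CPM in EVs, against 1396, 2364 and 2085 CPM in Cells. Here the groups overlapped, because EVs replicate 3 exceeded Cells replicate 1. The reads behind these values were 420, 375 and 991 in EVs and 218, 300 and 422 in Cells. Its log2 fold change was -1.14 (SE 0.23, edgeR BH-adjusted p = 0.00281), which is 0.453 times the Cells level after TMM scaling, against 0.464 times for miR-7a-5p.

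**Figure D1:**
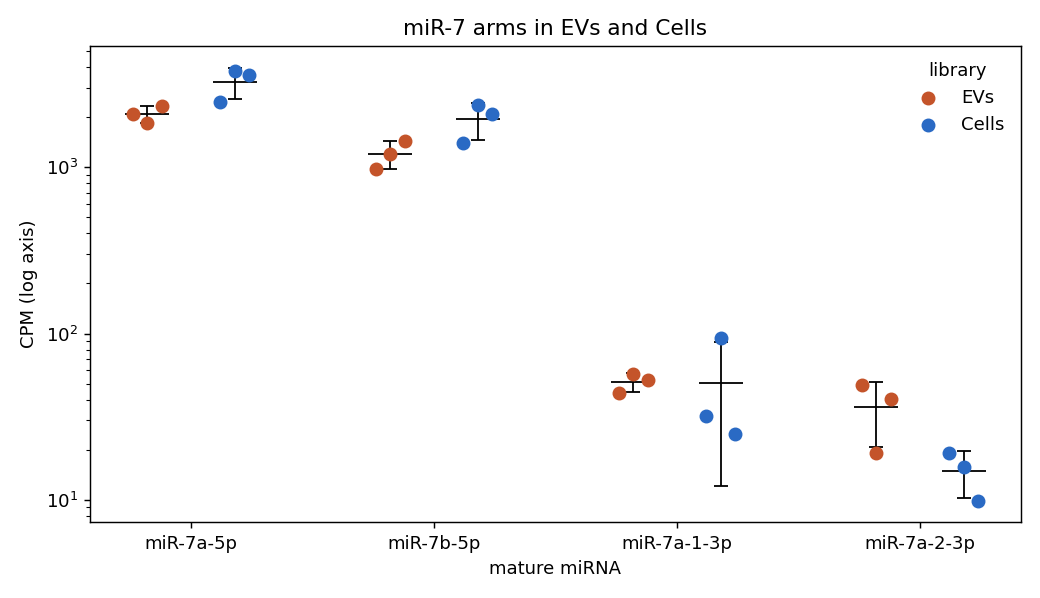
CPM (log axis) of 4 miR-7 arms in the 3 EVs and 3 Cells libraries, with points for libraries, a bar for the group mean and whiskers for the SD. miR-7a-5p and miR-7b-5p lie lower in EVs, and the 3p arms of miR-7a lie far below both 5p arms. miR-7b-3p had 0 reads in every library and is not drawn.

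Both tested members were therefore called lower in EVs, in a comparison where 57.4% of tested miRNAs were called at an adjusted p under 0.05, 28.9% lower and 28.6% higher. miR-7b-5p had the 69th lowest and miR-7a-5p the 73rd lowest log2 fold change of the 336, so their fall was not among the largest. How far they fell varied with the scaling. Scaled by library size alone, the log2 fold changes were -0.65 for miR-7a-5p (SE 0.22, edgeR BH-adjusted p = 0.0269) and -0.69 for miR-7b-5p (SE 0.26, edgeR BH-adjusted p = 0.036). Under that scaling the median over all tested miRNAs was 0.54 in place of 0.06, and 71.2% of the called miRNAs were higher in EVs in place of 49.7%. Relative to that median, the distance of both members was about as large as with TMM.

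Since a read with 1 error could pass from miR-7a-5p to miR-7b-5p, the 2 rows were also added up. The sum stood at 3060, 3040 and 3762 CPM in EVs, against 3874, 6146 and 5663 CPM in Cells. No EVs library reached the lowest Cells library, Cells replicate 1, which EVs replicate 3 approached most closely. The log2 fold change of the sum was -1.12 (SE 0.19, edgeR BH-adjusted p = 0.00115), and it rested on 4867 reads in EVs and 2531 in Cells.

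**Figure D2:**
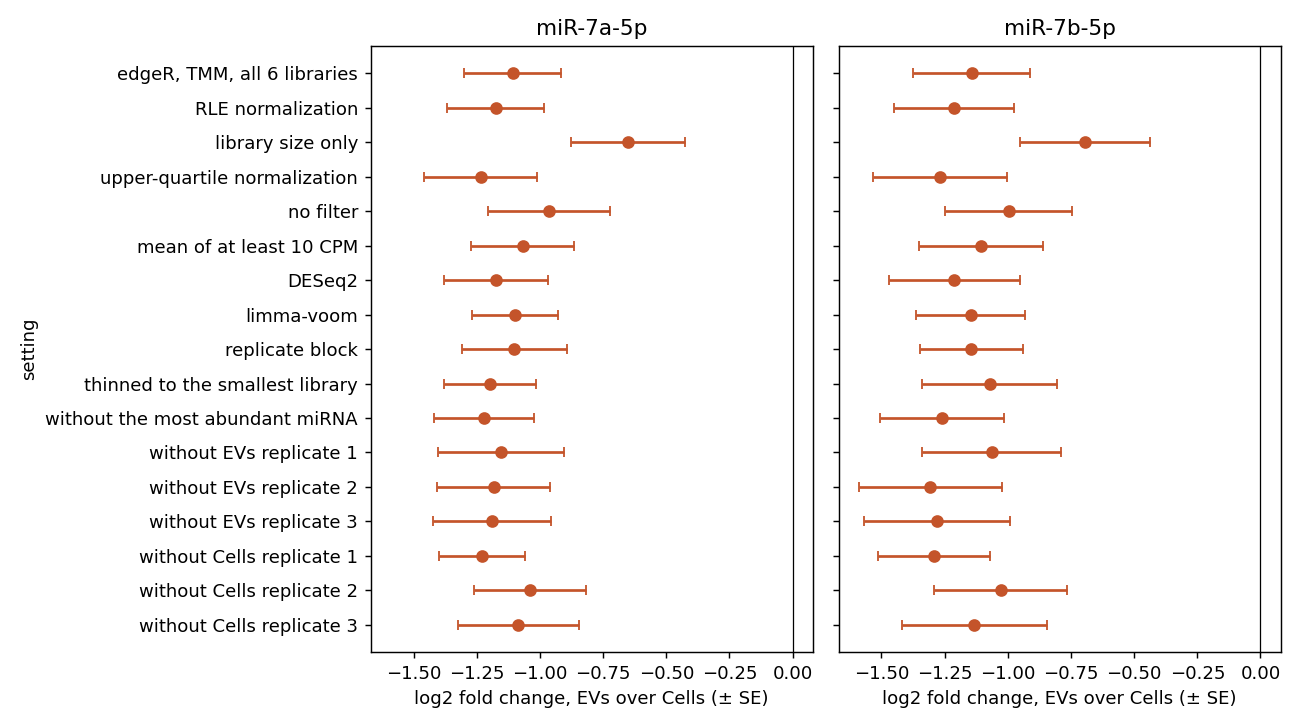
Log2 fold change of EVs over Cells (points, with bars for the SE) of miR-7a-5p and miR-7b-5p under each setting, named on the vertical axis. All values lie below 0, between -1.23 and -0.65 for miR-7a-5p and between -1.31 and -0.69 for miR-7b-5p, with those of library size only nearest to 0.

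The mix of the 2 sequences, which does not depend on the scaling, was then compared. miR-7b-5p made up 31.8% of miR-7 5p reads in EVs replicate 1 (95% exact binomial interval 29.3 to 34.4), 39.3% in EVs replicate 2 (36.2 to 42.5) and 38.2% in EVs replicate 3 (36.3 to 40.1). It made up 36.0% in Cells replicate 1 (32.2 to 40.0), 38.5% in Cells replicate 2 (35.0 to 42.0) and 36.8% in Cells replicate 3 (34.0 to 39.7). EVs replicate 1 lay below the other libraries, and the groups overlapped. The means were 36.5% ± 4.03 in EVs and 37.1% ± 1.24 in Cells (SD, n = 3 each; exact permutation p = 0.9, two-sided, where 3 against 3 cannot give less than 0.1). A difference in mix was thus not detected, which does not show that the mix was equal. These intervals cover counting error only.

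**Figure D3:**
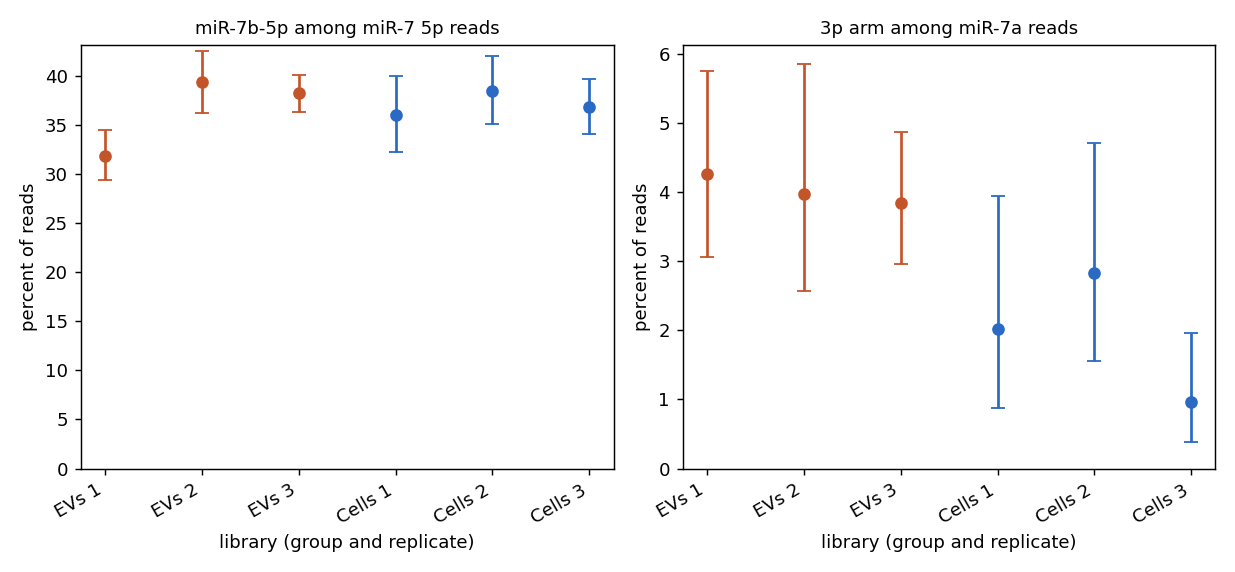
Left, percent of miR-7 5p reads that were miR-7b-5p. Right, percent of miR-7a reads that came from a 3p arm. Points are single libraries and bars are 95% exact binomial intervals. EVs replicate 1 is lowest on the left at 31.8%, and on the right the 3 EVs libraries (3.84% to 4.26%) lie above the 3 Cells libraries (0.958% to 2.83%).

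The 3p arms, usually degraded as passenger strands, were scarce. miR-7b-3p had 0 reads in all 6 libraries, beside 2726 reads of miR-7b-5p, which allows the 3p arm up to 0.110% of the reads of the hairpin (3 reads). The limit holds for reads assigned to this row. Whether the row was placed on the hairpin as in RefSeq could not be checked from counts, and a row placed elsewhere would also hold 0. In single libraries the limit was 0.303% to 0.800% in EVs and 0.711% to 1.38% in Cells. Over the 6 libraries miR-7a had 157 reads of its 3p arms beside 4672 of its 5p arm, which is 3.25% of its reads. This share mixes 3.99% in pooled EVs (128 of 3209 reads) with 1.79% in pooled Cells (29 of 1620). The upper limit for miR-7b-3p was therefore lower than the share of the miR-7a 3p arms. A wider comparison took the 84 miRNAs with both arms in the tables and at least 2726 reads over both, with genomic copies added up. Among these, 2 had 0 reads of the rarer arm. They were miR-7b itself, at the cut of 2726 reads, and miR-146a, with 2872, so both lay near the lower end of that range. How common an arm with no reads is at their depth was not counted. With reads pooled over the 6 libraries, the median share of the rarer arm among the 84 was 1.14%. By the same pooled share, 56 of them lay below miR-7a.

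The 3p arms of miR-7a took 4.26%, 3.98% and 3.84% of miR-7a reads in EVs, against 2.03%, 2.83% and 0.958% in Cells. The groups did not overlap (exact permutation p = 0.1, two-sided, the smallest possible), with means of 4.03% ± 0.214 in EVs and 1.94% ± 0.941 in Cells (SD, n = 3 each), but the Cells values rested on 8, 14 and 7 reads. How many other hairpins separate the groups in this way was not counted. On the scale of log2((5p + 0.5)/(3p + 0.5)), the mean ratio was 4.56 in EVs and 5.72 in Cells. Across 187 hairpins with at least 10 reads over both arms in every library, limma gave a difference of -1.16 (SE 0.49, BH-adjusted p = 0.0982), which was not called, while 35.8% of these hairpins were. The median difference over the 187 was -0.46. Arms near 0 reads make this ratio move with depth. In the 67 hairpins with at least 5 reads of each arm in every library, a filter chosen after seeing the data, the same difference of -1.16 was called (SE 0.40, limma BH-adjusted p = 0.0423), as were 41.8% of the hairpins, whose median difference was -0.10. Without Cells replicate 3 the difference was -0.72 (limma BH-adjusted p = 0.303, with the first filter).

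The 3p arms also bear on which miR-7a gene was read. miR-7a-1-3p, from the Hnrnpk intron, had 19, 18 and 36 reads in EVs and 5, 12 and 5 in Cells, or 51.2 ± 6.70 CPM in EVs, against 50.4 ± 38.4 CPM in Cells (SD, n = 3 each). Its log2 fold change was -0.34 (SE 0.50, edgeR BH-adjusted p = 0.597), or 0.11 with library size only, and it was called in neither. The sign rested on Cells replicate 2, since the value was 0.35 without that library (adjusted p = 0.588) and -0.76 without Cells replicate 3 (adjusted p = 0.234). miR-7a-2-3p had 21, 6 and 28 reads in EVs and 3, 2 and 2 in Cells, or 36.2 ± 15.3 CPM in EVs, against 14.95 ± 4.71 CPM in Cells, below the minimum count for the test. Its log2 fold change was 1.00 with no filter (edgeR BH-adjusted p = 0.341) and 0.90 with a mean of at least 10 CPM (adjusted p = 0.198), and it was not called when a Cells library was left out. It made up 43.0% of the miR-7a 3p reads pooled over EVs (55 of 128, 95% exact binomial interval 34.3 to 52.0) and 24.1% pooled over Cells (7 of 29, 10.3 to 43.5). These intervals cover counting error only and not the spread among libraries. Single libraries gave 52.5%, 25.0% and 43.8% in EVs, against 37.5%, 14.3% and 28.6% in Cells, so the groups overlapped (exact permutation p = 0.3, two-sided). Reads assigned to both miR-7a genes were therefore counted in both groups, but for miR-7a-2-3p in Cells they were only 3, 2 and 2. A difference in the mix of the genes was not detected, and 3 against 3 libraries cannot give a permutation p below 0.1 at any depth.

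By level, miR-7a-5p was the 75th most abundant miRNA in EVs and the 46th in Cells, and miR-7b-5p was the 99th in EVs and the 67th in Cells. Within single libraries miR-7a-5p ranked 73rd to 78th in EVs and 40th to 54th in Cells, and miR-7b-5p 93rd to 110th in EVs and 53rd to 72nd in Cells. These ranks do not depend on a scaling, and for both members every EVs library ranked it lower than every Cells library did. They do depend on the other miRNAs of a library, and the CPM of miR-7b-5p overlapped between groups. The share of all miRNAs whose ranks separate in this way was not computed. In EVs miR-7a-5p (2085 ± 240 CPM) sat between miR-127-3p (2170 ± 626) and miR-24-3p (2025 ± 500), and in Cells (3279 ± 702 CPM) between miR-191-5p (3362 ± 329) and miR-20a-5p (3099 ± 688). miR-7b-5p sat between miR-495-3p (1229 ± 102) and miR-541-5p (1189 ± 229) in EVs, at 1202 ± 232 CPM, and between miR-378a-3p (2002 ± 491) and miR-22-3p (1943 ± 364) in Cells, at 1948 ± 498 CPM. All of these neighbours lay within 1 SD of the member. Each value is a mean CPM ± SD over 3 libraries, and miRNAs also differ in how well they are ligated, so the order is that of reads.

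The miRNAs whose profile over the 6 libraries was most like that of the members were found by the root-mean-square difference of centred log2 CPM, among 255 others with a mean of at least 100 CPM. miR-351-5p was nearest to both, at 0.11 for miR-7a-5p and 0.10 for miR-7b-5p, against a median over the 255 of 0.76 and 0.80. It stood at 267, 271 and 350 CPM in EVs, against 333, 583 and 573 CPM in Cells, with Cells replicate 1 again the lowest of its group. For miR-7a-5p, miR-1843a-5p (0.15), miR-7b-5p (0.15), miR-26a-5p (0.16) and miR-330-3p (0.16) followed. For miR-7b-5p, miR-26a-5p (0.15), miR-7a-5p (0.15), let-7j (0.17) and miR-331-3p (0.19) followed. The 2 members were thus each the third nearest to the other. These distances describe 6 libraries and carry no test.

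The labelled cell type was checked on the oligodendrocyte miRNAs. All 5 of the list were read in every library, with a summed level of 33557 to 36111 CPM in EVs, against 33961 to 43435 CPM in Cells. The 10 neuronal miRNAs taken up below summed to more, 111331 to 144452 CPM in EVs, against 52896 to 68366 CPM in Cells. miR-219a-2-3p, the 3p arm of a hairpin of the miR-219 family, which is known from the maturation of oligodendrocytes mainly for its 5p arm, fell (log2 fold change -1.37, SE 0.23, edgeR BH-adjusted p = 0.000938). So did miR-338-5p, from a hairpin known from the same maturation (-2.06, SE 0.21, edgeR BH-adjusted p = 6.81e-05). miR-338-3p had a log2 fold change of -0.80 (edgeR BH-adjusted p = 0.0106), which was not called with library size only (-0.35, adjusted p = 0.162). Rises were called for miR-138-5p (0.73, SE 0.17, edgeR BH-adjusted p = 0.00482) and miR-219a-5p (0.81, SE 0.26, edgeR BH-adjusted p = 0.026). The call of miR-219a-5p was lost when libraries were blocked by replicate number (0.75, adjusted p = 0.0535). Leaving out EVs replicate 2 (0.39), Cells replicate 2 (0.70) or Cells replicate 3 (0.78) also ended it. In all, 2 of 5 rose and 3 fell, where 28.6% of all tested miRNAs rose and 28.9% fell. The median of the list was -0.80, beside 0.06 over all tested miRNAs.

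Ratios within a library, chosen after seeing the data and given without a test, place miR-7 beside these miRNAs without any scaling. How many other miRNAs would separate the groups in such a ratio was not counted, here or for the ratios below. For every 100 reads of miR-138-5p there were 27.0, 33.1 and 34.5 miR-7 5p reads in EVs, against 103, 131 and 107 in Cells. For every 100 reads of miR-219a-5p there were 40.7, 27.6 and 58.8 in EVs, against 106, 193 and 158 in Cells. The groups did not overlap in either ratio, and miR-7 was the more abundant of each pair in Cells and the less abundant in EVs. Since miR-138-5p and miR-219a-5p had been called higher in EVs and miR-7 lower, the direction of these ratios was known beforehand. For every 100 reads of miR-219a-2-3p there were 21.7, 27.1 and 28.6 in EVs, against 13.1, 30.6 and 26.9 in Cells, where the groups overlapped.

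**Figure D4:**
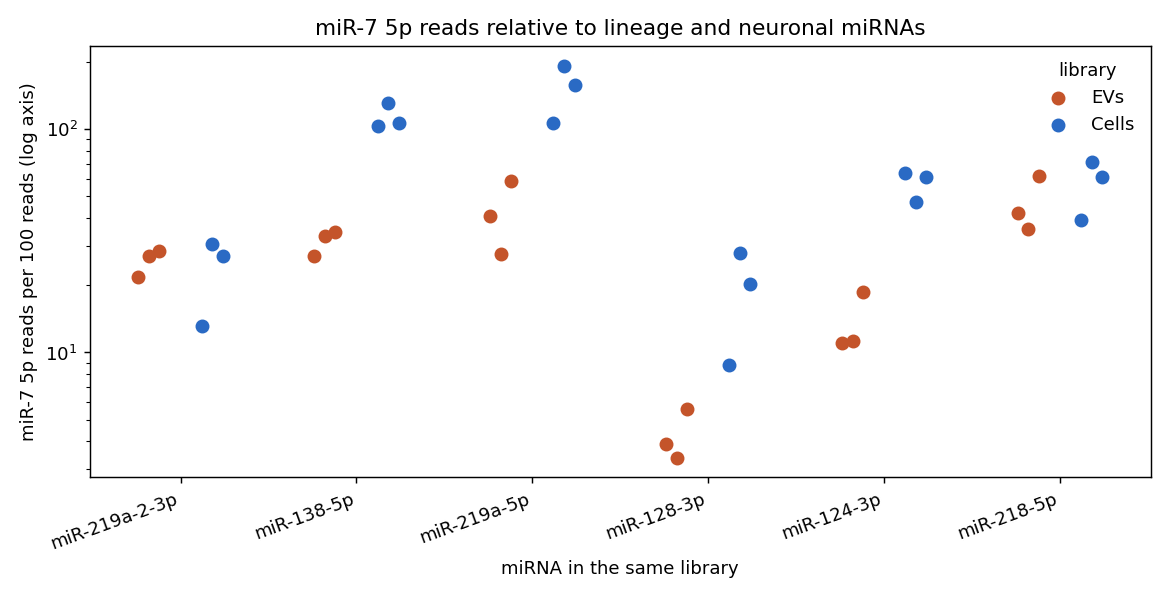
Reads of miR-7a-5p and miR-7b-5p together for every 100 reads of another miRNA in the same library (log axis). Points are libraries. Against miR-138-5p, miR-219a-5p, miR-128-3p and miR-124-3p the EVs libraries lie below all Cells libraries, and against miR-219a-2-3p and miR-218-5p the groups overlap.

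While the miR-7 5p arms fell, other miRNAs of neurons mostly did not. Of 10 tested neuronal miRNAs 6 rose and 1 fell, where 28.6% of all tested miRNAs rose and 28.9% fell. Their median was 0.60 on the log2 scale, beside 0.06 over all tested miRNAs. The number that rose was 2 without EVs replicate 1, 3 without any of EVs replicate 2, Cells replicate 2 and Cells replicate 3, and 5 when libraries were blocked by replicate number. The log2 fold change was 0.84 for miR-128-3p (SE 0.30, edgeR BH-adjusted p = 0.0348), 0.97 for miR-124-3p, which is specific to neurons (SE 0.25, adjusted p = 0.00832), and -0.81 for miR-218-5p, known from motor neurons (SE 0.22, adjusted p = 0.0104). The call of miR-218-5p ended with library size only (-0.35, adjusted p = 0.107), and those of miR-128-3p and miR-124-3p ended without EVs replicate 1 (0.85 and 0.85) or EVs replicate 2 (0.60 and 0.74). That of miR-128-3p also ended without Cells replicate 2 (0.60) or Cells replicate 3 (0.71). miR-132-3p, named after its values were seen, averaged 9885 CPM in EVs, against 4014 CPM in Cells, and rose (0.84, SE 0.20, edgeR BH-adjusted p = 0.0058). Its call held with each library left out and with the replicate block (0.83, adjusted p = 0.0106). For every 100 reads of miR-124-3p there were 11.0, 11.3 and 18.7 miR-7 5p reads in EVs, against 63.9, 47.2 and 61.0 in Cells. For every 100 reads of miR-128-3p there were 3.89, 3.37 and 5.56 in EVs, against 8.82, 27.8 and 20.2 in Cells. Both ratios were lower in every EVs library than in every Cells library, where miR-124-3p and miR-128-3p had already been called higher in EVs. For every 100 reads of miR-9-5p, the most abundant miRNA, there were 3.37, 2.42 and 4.25 miR-7 5p reads in EVs. In Cells there were 2.01, 3.42 and 3.41, so here the groups overlapped.

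**Figure D5:**
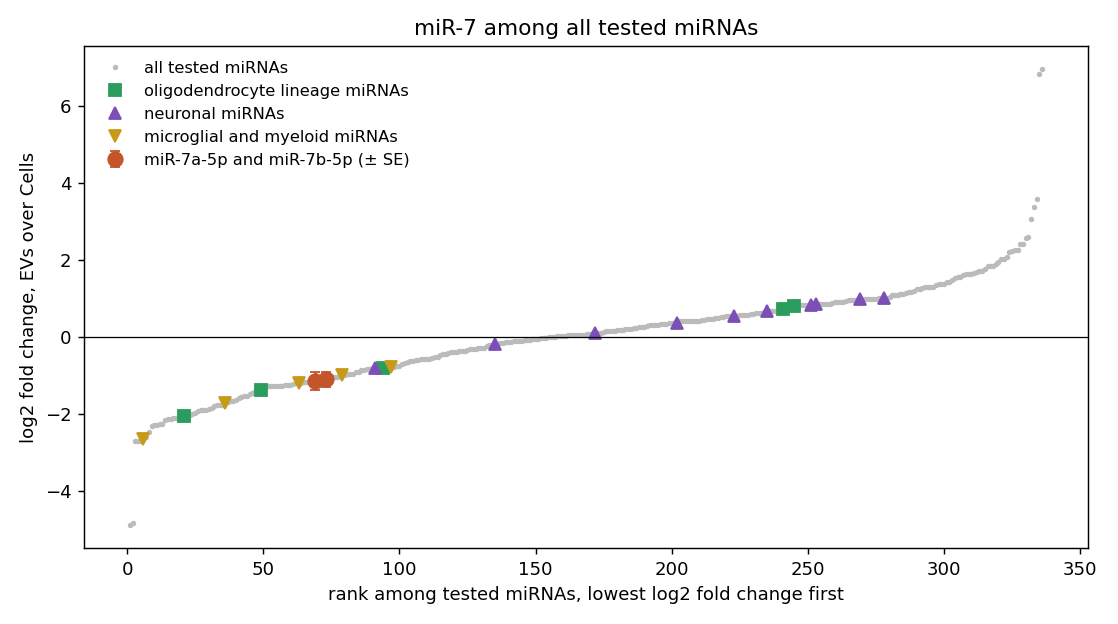
Log2 fold change of EVs over Cells of all 336 tested miRNAs, in order from the lowest. miR-7a-5p and miR-7b-5p (with SE) lie at ranks 73 and 69, and symbols mark the oligodendrocyte, neuronal and microglial lists. The neuronal miRNAs lie mostly above 0, and the microglial ones below it.

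The miR-671 hairpin, whose 5p arm cuts the miR-7 partner Cdr1as, was read in every library. miR-671-5p averaged 658 ± 84.4 CPM in EVs, against 453 ± 113 CPM in Cells (SD, n = 3 each). Every EVs library exceeded every Cells library, as in 47.3% of tested miRNAs, but with TMM its log2 fold change was 0.09 (SE 0.21, edgeR BH-adjusted p = 0.762). For every 100 reads of miR-671-5p there were 408, 521 and 587 miR-7 5p reads in EVs, against 1186, 1130 and 1158 in Cells, with no overlap. This separation was known beforehand, since in CPM every EVs library lay above every Cells library for miR-671-5p and below for the miR-7 sum. miR-671-3p, with 15, 10 and 24 reads in EVs and 12, 6 and 6 in Cells, was below the minimum count for the test. It was not called with no filter (-0.89, edgeR BH-adjusted p = 0.253) or with a mean of at least 10 CPM (-0.99, adjusted p = 0.0846). Of the 3 fits without a Cells library, which kept it, the one without Cells replicate 3 called it lower (-1.42, adjusted p = 0.028). Cdr1as and Cyrano are long RNAs and were not measured here.

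Other miRNAs of neuroendocrine and islet cells did not share the abundance of miR-7. Of the 14 that were counted, 12 had reads and 4 could be tested. Of these 0 rose and 1 fell, where 28.6% of all tested miRNAs rose and 28.9% fell, and the median was 0.03. Their sum was 555 to 889 CPM in EVs, against 567 to 730 CPM in Cells, below miR-7b-5p alone in every library. miR-153-3p (0.16), miR-182-5p (0.33) and miR-183-5p (-0.10), those with the highest mean CPM over the 6 libraries, were not called by edgeR (BH-adjusted p-values of 0.389 to 0.842), although miR-182-5p was called with library size only (0.81, adjusted p = 0.0496). The member that fell, miR-204-5p (-2.28, SE 0.46, edgeR BH-adjusted p = 0.00272), was named after its values were seen. It averaged 32.2 CPM in EVs and 117 CPM in Cells, where it exceeded miR-182-5p (104 CPM) and miR-183-5p (65.1 CPM). miR-375-3p, the defining miRNA of islet cells, had 10, 2 and 9 reads in EVs and 28, 4 and 4 in Cells, below the minimum count for the test. Cells replicate 1 held most of its Cells reads. Where other filters kept it, it was called lower (log2 fold change -2.70, edgeR BH-adjusted p = 5.85e-06, with no filter, and -2.80, adjusted p = 0.0157, with a mean of at least 10 CPM). The list then had 2 lower calls, of 12 and of 6 tested, and its median was -0.39 and -0.81. miR-184-3p had 0 to 3 reads per library.

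Markers of other cells moved with the groups. The 5 microglial and myeloid miRNAs summed to 612 to 1936 CPM in EVs, against 1592 to 4566 CPM in Cells. Of these, 0 rose and 4 fell, where 28.9% of all tested miRNAs fell, and their median was -1.19, beside 0.06 over all tested. There was 1 lower call with library size only or without Cells replicate 3, and there were 2 without Cells replicate 1. miR-146a-5p (-1.71), miR-142a-3p (-1.19) and miR-155-5p (-2.66) had the highest mean CPM over the 6 libraries, although in EVs miR-142a-5p (129 CPM, log2 fold change -0.79) exceeded miR-155-5p (68.9 CPM). The 5 erythroid and liver miRNAs summed to 9695 to 13615 CPM in EVs, against 237 to 301 CPM in Cells. All 3 that were tested rose (miR-486a-5p, miR-451a and miR-122-5p), where 28.6% of all tested miRNAs rose. In Cells, however, miR-451a had 2, 7 and 3 reads and miR-122-5p had 7, 6 and 5. These miRNAs met the minimum count through EVs alone, so their rise cannot be weighed against that share. The median of the list, 6.84 beside 0.06 over all tested, is the value of miR-122-5p and rests on those few Cells reads. miR-144-5p was at 0 in all Cells libraries. The part of these other sources in the miR-7 result was not tested.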

How the data were processed

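Small RNA was sequenced from 3 EVs and 3 Cells samples. The authors deposited counts, whole reads per mature miRNA. The submitters' processing notes name Bowtie 0.12.8, featureCounts 1.4.6-p4 of Subread, cutadapt 1.7.1 and bcl2fastq 1.8.4, with the build NCBIM37 (mm9). How multi-mapping reads, strand and the random adapter bases were handled is not given in the sources used here. Reads could thus be exchanged between near-identical miRNAs, and PCR copies could be counted. RefSeq and GENCODE positions are of GRCm38, and none came from the count tables.

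The labels gave each library's group and replicate number. Counts were compared with edgeR 4.0.16 (R 4.3.3; filterByExpr at a minimum count of 10, TMM, glmQLFTest, two-sided, BH over 336 miRNAs, adjusted p under 0.05), with arm ratios tested by limma 3.58.1 and shares by exact permutation (scipy 1.17.1). CPM carry no TMM factor. The code was checked on simulated data. P-values reflect only the spread among these libraries, which could be technical. No replicates differed by as little as sampling noise (chi-square 7.73 to 37.5 times its degrees of freedom). A count of 0 allows up to 3 reads, or 4.35 to 9.56 CPM in EVs, against 14.8 to 23.6 CPM in Cells.

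Same-numbered EVs and Cells libraries deviated weakly together from their group means (correlations of 0.115, 0.103 and 0.254 over the 336 miRNAs). For libraries with different numbers the correlations were -0.140 to 0.0203. The numbers may thus pair the libraries, which the labels do not state. The main tests took no account of a pairing, and the replicate number was tried as a block. The other alternatives were other scalings and filters, DESeq2 1.42.0, limma-voom, thinning, leaving out miR-9-5p (the most abundant miRNA) and leaving out each library. Members and lists were chosen with earlier results of these data known. The 7 lists held miR-7 3p arms with mir-3529 (whose names were not matched), miR-671, neuroendocrine, oligodendrocyte, neuronal, myeloid, and erythroid with liver miRNAs. Named were the members, the 3 miRNAs of each list with the highest mean CPM over the 6 libraries, the 5 nearest in profile, the nearest in level and any with the same seed.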

Additional observations from a re-analysis of the deposited data

How the results depend on the processing

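miR-7a-5p, miR-7b-5p and their sum stayed lower in EVs and called in all 16 alternatives run for each. Their log2 fold changes lay between -1.23 and -0.65, -1.31 and -0.69, and -1.28 and -0.67, the values nearest 0 being those with library size only. When a library was left out they lay between -1.23 and -1.04, -1.31 and -1.03, and -1.25 and -1.04. Blocked by replicate number, which pairs same-numbered libraries, the values were -1.10 (edgeR BH-adjusted p = 0.00433), -1.14 (0.00335) and -1.12 (0.00365), and the block changed no call of these. The number of called miRNAs was 193, and 160 to 235 in the alternatives, or 187 with the block. The difference in miR-7b share between EVs and Cells was -0.65 percentage points, 1.67 after thinning to 126910 counts and between -2.08 and 1.65 when a library was left out, positive without EVs replicate 1 or Cells replicate 2. The cause was not tested. With so few libraries the exact permutation test cannot give a p below 0.1, so the difference could not have been called in any of these. The arm ratio of miR-7a was called only with at least 5 reads in each arm (-1.16, limma BH-adjusted p = 0.0423), where 67 in place of 187 hairpins were tested, and it lay between -1.49 and -0.72 when a library was left out. miR-7b-3p, with no reads, could be given no test under any setting. The depth of the Cells libraries limits the 3p arms of miR-7a, with 5 to 12 reads of miR-7a-1-3p and 2 to 3 of miR-7a-2-3p in each.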
